A study of Rattus norvegicus with 12 samples.

Results

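PTnov2 is a cluster of kidney nuclei that the authors placed in the proximal tubule (PT). Its members are the nuclei that carry this cluster name in the deposited table of nuclei, 762 of 217132 nuclei from 12 rats. All 762 were also typed as PT by the authors, so that PTnov2 made up a small part of the 131704 PT nuclei, which fell into 8 clusters. The other 7 PT clusters were PTnov1, a further cluster that the authors named alongside PTnov2, the proximal convoluted tubule (PCT) and its Spp1+ form, the proximal straight tubule (PST) with its S2 and Spp1+ forms, and injured PT (PTinj). PTnov2 was nearly restricted to lean animals, as 730 of the 762 nuclei (95.8%) came from the 3 lean rats. The analysis used no expression values per gene, so the PT identity of the cluster was taken from the annotation and not checked against marker genes.

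All rats were male ZSF1 rats, with the genotype labelled ZSF1-LeprfaLeprcp/Crl in lean and obese animals alike. The obese ZSF1 rat carries a defective leptin receptor on both alleles and becomes obese and diabetic with kidney damage, and lean ZSF1 rats are its control strain. From an age of 13 to 14 weeks, obese rats received for 12 weeks vehicle (called obese here), the soluble guanylate cyclase activator BAY 1101042, also named runcaciguat, at 3 mg/kg 2 times a day (Obese+sGCact), or the stimulator BAY 1165747 at 3 mg/kg 1 time a day (Obese+sGCstim). Lean rats received neither drug nor vehicle, so the lean and obese groups differed in genotype and in dosing, and the effects of these cannot be told apart. Kidneys were taken at 25 to 26 weeks of age, and nuclei of 3 rats per group were sequenced, out of 6 lean rats and of 10 in every obese group. Rats are named below as in the table of nuclei, and each rat is 1 library.

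The proximal tubule takes back most of the glucose, amino acids, phosphate and bicarbonate that the glomerulus filters, and its cells rank among the most mitochondria-rich of the kidney. It begins with the convoluted part (PCT) and ends with the straight part (PST). Mitochondria make their own transcripts outside the nucleus, so the mitochondrial percentage of a nucleus, the share of its unique molecular identifiers (UMIs, 1 per captured transcript molecule) that fall on mitochondrially encoded genes, measures RNA that was captured together with it. Soluble guanylate cyclase makes cyclic GMP when nitric oxide binds to its heme. Stimulators need the heme to be present in its reduced (ferrous) form, and activators act preferentially on enzyme whose heme is oxidized or lost.

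The rats contributed 10488 to 43484 nuclei and 11898496 to 49272672 UMIs each. The obese rat RK9_4 stood apart by its 40028 PT nuclei. PT nuclei of the lean rats were deeper than most others, with median UMIs of 2000 to 3462 in lean rats, 699 to 1546 in obese rats, 803 to 2018 under sGCact and 885 to 1860 under sGCstim. Of the PT nuclei, 12.6% to 28.5% had at least 1% mitochondrial UMIs in lean rats, 32.8% to 88.1% in obese rats, 12.2% to 63.0% under sGCact and 7.03% to 66.7% under sGCstim, so 3 treated rats (RK46_4, RK57_4 and RK58_4) were as low as or lower than most lean rats. Of the 762 PTnov2 nuclei, 42 (5.51%) carried a cell barcode that recurred in another rat, against 5.42% of all nuclei, and in 0 cases were both nuclei with the shared barcode members of PTnov2.

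PTnov2 nuclei were found in all 3 lean rats, in none of the 3 obese rats and in 4 of the 6 treated rats. Lean RK1_4 had 315 PTnov2 nuclei among 6441 PT nuclei. Lean RK3_4 had 256 among 6925, and lean RK5_4 had 159 among 6423. These counts correspond to 4.89% of PT nuclei in RK1_4 (95% Wilson interval 4.39 to 5.44), 3.70% in RK3_4 (3.28 to 4.17) and 2.48% in RK5_4 (2.12 to 2.88). The intervals of the lean rats did not overlap each other, so that the cluster varied among lean rats by more than the counting error that such intervals cover. The mean share was 3.69% ± 1.21 of PT nuclei and 1.51% ± 0.50 of all nuclei (SD, n = 3).

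The obese rats RK7_4, RK9_4 and RK16_4 had 0 PTnov2 nuclei among 8005, 40028 and 4959 PT nuclei. By counting error alone, with 3 nuclei taken over the group, 0 of 52992 nuclei allow a share of up to 0.00566%. This limit is 652-fold lower than the pooled lean share of 3.69%. It pools the nuclei of the 3 rats and does not cover the spread between rats. Without RK9_4, 0 of 12964 nuclei allow up to 0.0231% on the same terms, 159-fold lower.

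Among the treated rats PTnov2 was rare, and 1 rat held most of it. Under sGCact, RK43_4 had 1 nucleus among 12076 PT nuclei, RK45_4 had 0 among 15094, and RK46_4 had 2 among 3414. Under sGCstim, RK57_4 had 27 among 6425 PT nuclei (0.420%, 0.289 to 0.611), RK58_4 had 2 among 5480, and RK61_4 had 0 among 16434. All 9 obese rats, treated or not, lay below all 3 lean rats, and the highest of them, RK57_4, stood below the lowest lean rat. The pooled lean share was 376-fold that under sGCact (counting interval 128 to 1828) and 36.0-fold that under sGCstim (24.9 to 54.2). Without RK57_4 the latter ratio was 404 (111 to 3344), resting on 2 nuclei.

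**Figure D1:**
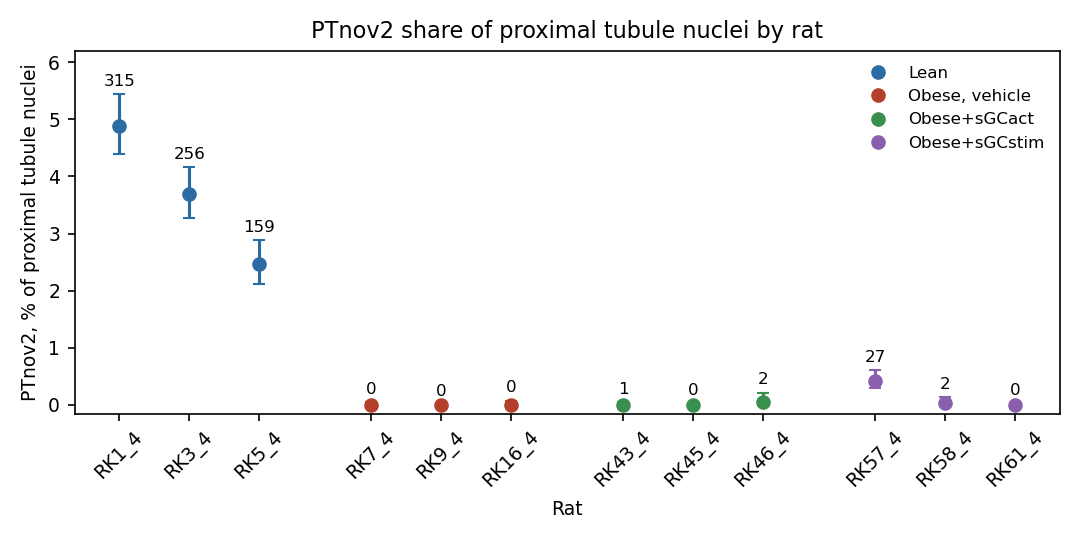
PTnov2 nuclei as a percentage of the PT nuclei of each rat (points) with 95% Wilson intervals (bars), coloured by group, with the number of PTnov2 nuclei above each point. The lean rats sit between 2.48% and 4.89%, RK57_4 at 0.420%, and the other 8 rats at or near 0.

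The question for the design was whether the share of PTnov2 differed between the groups by more than the spread between rats. Log odds of each cluster in each rat were fitted with limma over all 4 groups, with Benjamini-Hochberg adjustment across the clusters tested in the contrast. As a share of PT nuclei, PTnov2 was lower in obese than in lean rats, with a change of -6.76 log odds (SE 1.17, limma adjusted p = 0.00136). The change was -5.54 under sGCact (SE 1.17, limma adjusted p = 0.00615) and -4.55 under sGCstim (SE 1.17, limma adjusted p = 0.0237). PTnov2 was the only one of the 8 PT clusters past the threshold of 0.05 in each of these contrasts, which makes 12.5% of the clusters called. These contrasts share the 3 lean rats. Because the obese group held no PTnov2 nucleus, the fitted changes depend on the 0.5 nuclei added to each count and are no measure of fold.

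As a share of all nuclei the call was the same. The change was -6.28 in obese rats (SE 0.953, limma adjusted p = 0.000444), -5.30 under sGCact (SE 0.953, limma adjusted p = 0.00232) and -4.23 under sGCstim (SE 0.953, limma adjusted p = 0.0169). Among all 25 clusters, 3 (12%) were called in obese against lean rats, all of them lower. The other 2 were the thick ascending limb (TAL, change -1.83, limma adjusted p = 0.0323), the segment that reabsorbs salt without water, and the descending thin limb (DTL, -1.75, limma adjusted p = 0.0323). This count of 3 was 1 without RK1_4, RK5_4, RK43_4, RK45_4 or RK57_4 and 9 without RK16_4, and PTnov2 was called in each case. Under sGCact and under sGCstim, 1 of 25 clusters (4%) was called against lean, PTnov2 in both cases. Over PT nuclei the call under sGCact was lost in the edgeR count test (edgeR adjusted p = 0.0601 to 0.0669). The call under sGCstim was the least firm, since it was lost when the compared groups were fitted alone (limma adjusted p = 0.107 over all nuclei and 0.0592 over PT nuclei) and in the edgeR count test (0.0836 to 0.0975 over all nuclei and 0.0997 to 0.145 over PT nuclei). It was also lost when 1 rat was left out. Over PT nuclei the limma adjusted p was then 0.0868 without RK1_4, 0.0755 without RK3_4, 0.0575 without RK5_4, 0.0659 without RK58_4 and 0.0668 without RK61_4, and over all nuclei it was 0.0732 without RK1_4, 0.0745 without RK3_4, 0.0574 without RK16_4 and 0.0566 without RK58_4.

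The mean of the 3 obese groups lay below lean by a change of -5.62 in PT nuclei (SE 0.957, limma adjusted p = 0.00118, 1 of 8 clusters or 12.5% called) and -5.27 in all nuclei (SE 0.778, limma adjusted p = 0.000336, 1 of 25 clusters or 4% called). The shares gave an exact two-sided permutation p = 0.00909 for the 9 obese rats against the 3 lean rats, the smallest that its 220 splits allow. With 3 rats against 3, the exact permutation p was 0.1 for each obese group against lean, and this is the smallest that such a design can give. The limma p values set each difference against a spread between rats that is estimated over all 4 groups and moderated across clusters. RK7_4, RK9_4 and RK16_4 each had 0 PTnov2 nuclei, so their log odds differ only through their total nuclei. The p values of the obese group therefore do not rest on a spread of PTnov2 seen within that group.

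PTnov2 did not pass the threshold in either treated group against vehicle. As a share of PT nuclei, Obese+sGCact differed from obese by 1.22 log odds (95% interval -1.39 to 3.82, limma adjusted p = 0.518). Obese+sGCstim differed from obese by 2.21 (95% interval -0.40 to 4.82, limma adjusted p = 0.705). The difference of sGCact minus sGCstim, which were dosed at different frequencies, was -0.995 (95% interval -3.60 to 1.61, limma adjusted p = 0.621). In each of these 3 contrasts limma and edgeR each called 0 of 8 PT clusters (0%), and 0 of them reached an unadjusted limma p below 0.05. The intervals are wide, and 27 of the 32 PTnov2 nuclei outside the lean group came from RK57_4. Without RK61_4, the sGCstim rat with 0 PTnov2 nuclei, the contrast of Obese+sGCstim against obese passed (change 3.49, limma adjusted p = 0.0469).

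PTnov1 was present in all 12 rats. It formed 8.03% to 8.97% of PT nuclei in lean rats (mean 8.38% ± 0.509, SD, n = 3), 5.81% ± 1.08 in obese rats, 6.71% ± 1.95 under sGCact and 5.10% ± 1.19 under sGCstim. None of its contrasts in PT nuclei passed, with a change of -0.40 in obese against lean rats (SE 0.319, limma adjusted p = 0.624). Counted together, PTnov1 and PTnov2 made up 12.1% ± 1.37 of lean PT nuclei, against 5.81% ± 1.08, 5.25% ± 1.00 and 6.73% ± 1.93 in the obese, sGCstim and sGCact groups. This sum is a description, with no test, since the clusters were joined after their values were seen.

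PTnov2 nuclei held few UMIs. Their median was 1078 UMIs in RK1_4, 914.5 in RK3_4 and 733 in RK5_4, against 3554, 2526 and 2022 for all other PT nuclei of the same rats. The median number of expressed genes was 824, 699 and 581. Depth differed between rats, and the PTnov2 median followed it, from the deepest lean rat to the shallowest. In RK57_4, the shallowest of these, the median PTnov2 nucleus had 475 UMIs and 412 genes. Clusters were drawn from the expression of these same nuclei, so all values per nucleus are given as a description, with no test.

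Placed on the scale of its own rat, PTnov2 sat close to the lower limit of depth. Ranked by UMIs among the PT nuclei of the rat, from 0% for the shallowest to 100% for the deepest, the median PTnov2 nucleus stood at 7.46% in RK1_4, 6.87% in RK3_4, 5.71% in RK5_4 and 1.54% in RK57_4. The lowest 10% by UMIs held 64.4%, 68.8%, 76.1% and 100% of PTnov2 in these rats. The shallowest PTnov2 nucleus had 967, 750, 634 and 411 UMIs, where the shallowest PT nucleus of any cluster had 961, 750, 634 and 411. The cluster thus reached down to, or nearly to, the shallowest PT nucleus kept in each rat. Such a low rank was shared by other clusters. PST(Spp1+) ranked at 7.61% in RK1_4, 5.34% in RK3_4, below PTnov2, and 26.1% in RK5_4. PTnov1 ranked at 9.45%, 18.2% and 6.42%, and the straight tubule cluster PST at a mean of 65.0% ± 3.87 (SD, n = 3).

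**Figure D2:**
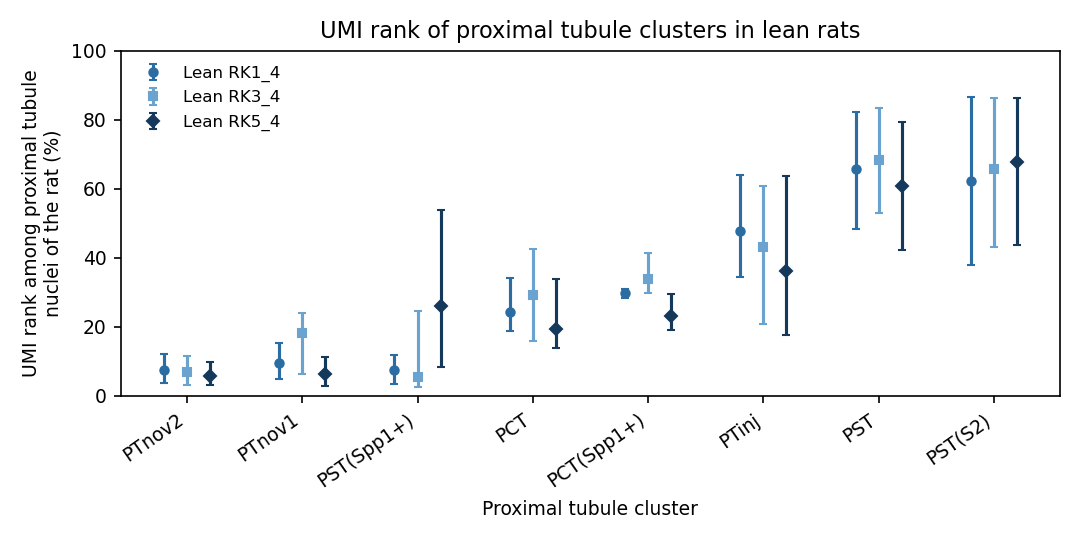
UMI rank of the nuclei of each PT cluster among all PT nuclei of the same lean rat, in percent, as the median (points) and the quartiles (bars) for each of the 3 lean rats. PTnov2 lies between 5.71% and 7.46%, with PTnov1 and PST(Spp1+) as its nearest clusters and PST and PST(S2) the highest.

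The other mark of PTnov2 nuclei was their mitochondrial percentage. Its median was 2.77% in RK1_4, 3.67% in RK3_4, 1.96% in RK5_4 and 2.03% in RK57_4. The rest of the PT nuclei in the lean rats had a median of 0.0409%, 0.0729% and 0%. Among lean rats, the mean of the rat medians was 2.80% ± 0.857 for PTnov2, 4.16% ± 1.38 for PTnov1, 1.94% ± 1.73 for PST(Spp1+), 0.765% ± 0.506 for PCT and 0.0171% ± 0.0149 for PST (SD, n = 3). PTnov2 thus stood below PTnov1, which was higher in each lean rat (3.51%, 5.74% and 3.23%), and above PCT. PCT(Spp1+) lay between PTnov2 and PCT in each lean rat (1.84%, 2.40% and 0.227%). PST(Spp1+) did so in RK1_4 (2.49%) and RK3_4 (3.32%) but not in RK5_4 (0%).

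Of the lean PTnov2 nuclei, 689 of 730 (94.4%) had at least 1% mitochondrial UMIs, against 20.0% of other lean PT nuclei. They were 15.3% of the lean PT nuclei above that limit, from 12.8% in RK3_4 to 18.2% in RK1_4. With 3.69% of the PT nuclei and 1.45% of the PT UMIs of lean rats, PTnov2 held 9.19% of their mitochondrial UMIs. In counts, the median of PTnov2 was 30 mitochondrial UMIs per nucleus in RK1_4, 34 in RK3_4 and 14 in RK5_4. All other PT nuclei of these rats had medians of 2, 2 and 0. PTnov1 was higher, at 40, 69 and 24, and PCT(Spp1+) had 39, 38 and 3.

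**Figure D3:**
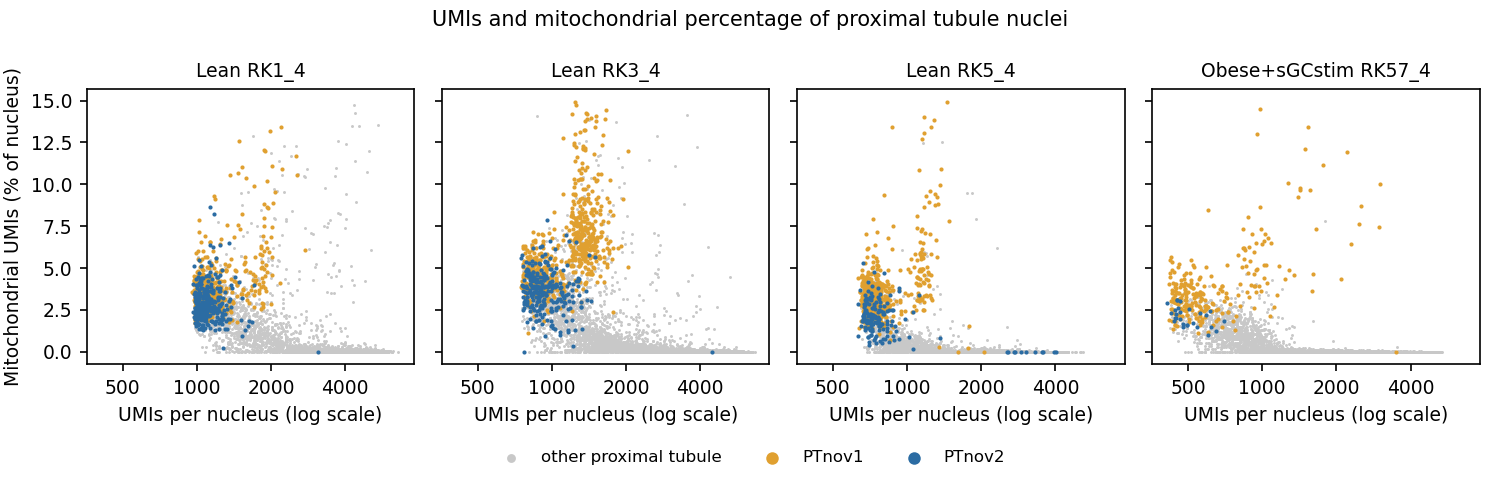
Mitochondrial percentage (vertical axis) against UMIs (horizontal axis, log scale) of each PT nucleus in the 3 lean rats and in RK57_4, with PTnov2 in blue, PTnov1 in orange and other PT clusters in grey. PTnov2 fills the low-UMI end, at medians of 475 to 1078 UMIs and 1.96% to 3.67% mitochondrial, beneath most PTnov1 nuclei, and RK5_4 adds a few nuclei above 2000 UMIs.

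A small number of members did not share these features. In the lean rats 13 PTnov2 nuclei had at least 2000 UMIs, 11 of them in RK5_4, and their median mitochondrial percentage was 0%. The other 717 had medians of 999 UMIs and 2.93% mitochondrial. In RK5_4, 11 of 159 PTnov2 nuclei (6.92%) had no mitochondrial UMI, compared with 0.317% in RK1_4 and 0.781% in RK3_4.

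The 5 nuclei from treated rats other than RK57_4 were also mixed. The nucleus of RK43_4 had 707 UMIs and 4.53% mitochondrial. In RK46_4 the nuclei had 1033 UMIs with 1.36% and 1957 UMIs with 0%, and in RK58_4 they had 3116 and 3270 UMIs, both with 0%. The 27 nuclei of RK57_4 had 411 to 698 UMIs and 0.992% to 3.11% mitochondrial, inside the mitochondrial range of the lean members.

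PT nuclei matched in depth were compared within each lean rat, over the range between the lower and upper quartile of UMIs of PTnov2. PTnov2 made up 29.0% of 545 PT nuclei in this range in RK1_4 (1022 to 1166 UMIs), 22.2% of 580 in RK3_4 (837 to 1032) and 18.7% of 428 in RK5_4 (697 to 808). At this depth PTnov2 and the other PT nuclei had nearly the same median number of genes, 824 and 827 in RK1_4, 699 and 703 in RK3_4, and 581 and 590 in RK5_4. Their median mitochondrial percentages were also close, 2.82% and 3.01% in RK1_4, 3.80% and 3.51% in RK3_4, and 2.08% and 2.61% in RK5_4. The other nuclei were a mix of clusters, with PTnov1 giving 226 of 387 in RK1_4, 174 of 451 in RK3_4 and 225 of 348 in RK5_4. In RK3_4, PCT gave 198 of them. PTnov1 was higher (3.35%, 4.46% and 3.09%) and PCT lower (2.02%, 2.78% and 0.678%) than PTnov2 in each rat at this depth too. PST(Spp1+) was lower than PTnov2 by less than PCT was (2.65%, 3.39% and 1.95%, in 89, 24 and 23 nuclei). PTinj, which had few such nuclei, reached 3.82% in RK3_4 and 1.36% in RK5_4. PST had 20 such nuclei in RK3_4, with a median of only 0.106%.

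Obese rats had many PT nuclei with the same depth and mitochondrial percentage, under other cluster names. Between 695 and 1337 UMIs and between 0.953% and 5.17% mitochondrial, the 5th to 95th percentiles of the lean PTnov2 nuclei, lean rats had 2716 PT nuclei, of which 603 (22.2%) were PTnov2. By rat, these were 27.8% in RK1_4, 19.8% in RK3_4 and 16.6% in RK5_4. Obese rats had 21665 PT nuclei in the same ranges and 0 PTnov2, which by counting error alone allows a share of up to 0.0138%. RK9_4 supplied 20055 of these nuclei, and without it 0 of 1610 allow up to 0.186%. The sGCact group had 2 PTnov2 among 9124 and the sGCstim group 1 among 4746. The most frequent cluster name in this window varied from rat to rat. PTnov1 led in lean RK1_4 (37.6%) and RK5_4 (57.9%) and PCT in lean RK3_4 (49.1%). PST led in obese RK7_4 (87.6%) and RK9_4 (79.7%) and PCT in RK16_4 (56.0%), the obese rat whose PT depth was nearest to the lean rats. Treated rats were led by PCT in RK43_4, RK46_4 and RK57_4, by PST(Spp1+) in RK45_4 and RK61_4, and by PTnov1 in RK58_4 (71.1%).

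PTnov2 was also counted within fixed ranges of mitochondrial percentage. From 2% to 4% it made up 23.9% of PT nuclei in RK1_4, 19.2% in RK3_4 and 15.9% in RK5_4, or 20.5% over the lean rats. The lean shares were 11.4% from 1% to 2% (10.7%, 5.50% and 25.3% by rat) and 11.8% from 4% to 8%. The lean rats differed most from 0.5% to 1%, where 21 of the 23 PTnov2 nuclei came from RK5_4 (10.0% of its PT nuclei, against 0.532% in RK1_4 and 0.298% in RK3_4), so that the pooled share of 3.14% was 0.382% without RK5_4 and 5.54% without RK3_4. From 0% to 0.5% the pooled share was 0.124%, and 0.0546% without RK5_4, and from 8% to 15% both PTnov2 nuclei came from RK1_4. The peak range was 2% to 4% in RK1_4 and RK3_4 and 1% to 2% in RK5_4, the lean rat with the lowest mitochondrial percentage. Obese rats held 0 PTnov2 nuclei in each of the 6 ranges. They had 12324 PT nuclei from 2% to 4%, or 1734 without RK9_4, and 585 to 5379 in the other ranges without that rat. RK57_4 reached 4.82% from 2% to 4% (2.94 to 7.80), below each lean rat in that range.

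**Figure D4:**
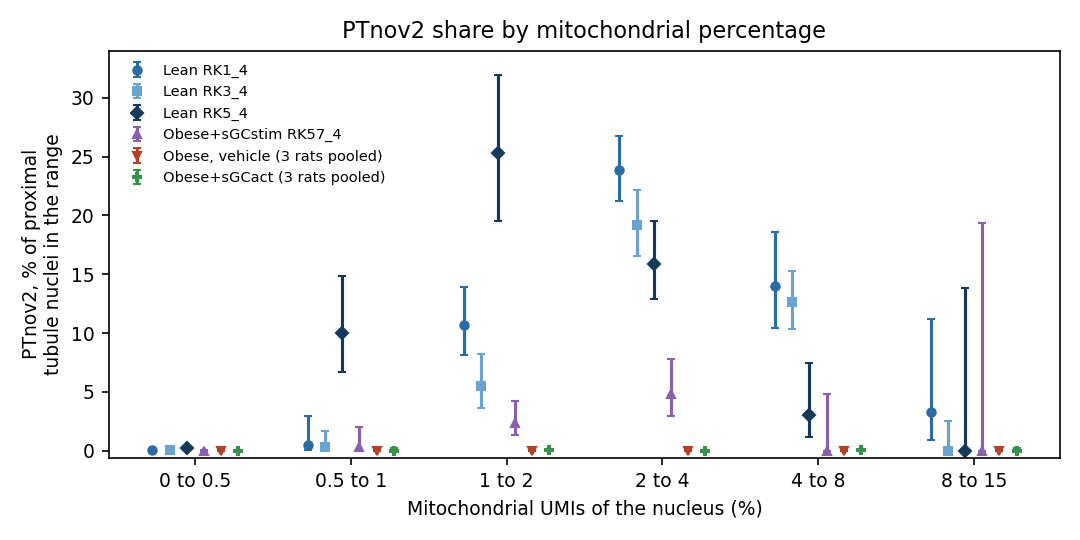
PTnov2 as a percentage of the PT nuclei within 6 ranges of mitochondrial percentage (points, with 95% Wilson intervals), for each lean rat, for RK57_4, and for the pooled obese and Obese+sGCact rats. Pooled lean shares peak at 20.5% from 2% to 4%, whereas the obese rats are at 0 in every range.

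By depth, PTnov2 was 33.7%, 25.5% and 13.9% of the PT nuclei from 500 to 1000 UMIs in RK1_4, RK3_4 and RK5_4. From 1000 to 2000 UMIs the shares were 16.6%, 3.61% and 0.230%, so the pooled 6.06% was 1.87% without RK1_4 and 9.47% without RK5_4. From 2000 to 4000 UMIs 11 of 8574 lean PT nuclei were PTnov2, 10 of them from RK5_4. Obese rats had 0 of 37388, 0 of 10473 and 0 of 4675 in these ranges, and without RK9_4 0 of 6474, 0 of 3705 and 0 of 2503. Under 500 UMIs there were no lean PT nuclei, while RK57_4 had 145, of which 17 (11.7%) were PTnov2. The depth at which PTnov2 appeared therefore differed between rats, with 279 of the 315 nuclei of RK1_4 between 1000 and 2000 UMIs and 143 of the 159 nuclei of RK5_4 between 500 and 1000.

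UMIs were also ranked within each rat, which gives the rats a common rank scale but not a common depth. The highest UMI count in the lowest 10% ran from 566 in RK7_4 to 1122 in RK1_4. Among the lowest 10% of PT nuclei by UMIs, PTnov2 made up 31.5% in RK1_4, 25.4% in RK3_4 and 18.9% in RK5_4, 4.21% in RK57_4 and 0 in each of the other 8 rats. In the lean rats PTnov1 was the most frequent name in this set (43.3%, 33.1% and 56.8%). PST led in RK7_4 (96.2%) and RK9_4 (77.5%), PST(Spp1+) in RK16_4 (43.4%), and PST(Spp1+), PCT or PTnov1 in the treated rats. The median mitochondrial percentage of the set was 2.96%, 3.79% and 2.62% in the lean rats and 3.73%, 3.16% and 2.85% in the obese rats, so these sets overlapped in that measure while they differed in cluster names. The part that depth, mitochondrial RNA and the cluster assignment of shallow nuclei have in the share of PTnov2 was not tested.

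In the deposited two-dimensional map, which the authors computed after batch correction, PTnov2 formed a narrow strip beside PTnov1. Of the 30 nearest nuclei of a PTnov2 nucleus, 83.1% were PTnov2 on average, 4.85% PTnov1, 3.04% TAL, 2.62% the Shroom3+ form of DTL, 1.92% PCT and 1.14% fibroblasts and pericytes (Fib/Peri). For 639 of the 762 members most of the 30 neighbours were PTnov2, and 41 members had none. Of the neighbours, 58.3% came from the same rat and 87.9% from lean rats. PTnov2 was itself 95.8% lean and made up most of these neighbours, so a high lean share among them follows from membership. Map and clusters were both drawn from the expression of these nuclei, so the shares are a description, with no test.

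The strip was not filled evenly by the rats. RK3_4 and RK57_4 lay lower on the second map axis than RK1_4 and RK5_4. The median position was 2.41 for RK1_4, 2.02 for RK5_4, 0.642 for RK3_4 and 0.588 for RK57_4, with quartiles of 2.12 to 2.66 in RK1_4, 1.70 to 3.11 in RK5_4 and -0.117 to 1.36 in RK3_4. The quartiles of RK1_4 and RK5_4 overlapped, and those of RK3_4 lay apart from both.

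A circle around the median PTnov2 position that held 90% of the cluster (radius 3.83 map units) contained 2647 lean nuclei, of which 658 (24.9%) were PTnov2 and 1411 (53.3%) PTnov1. In obese rats it contained 2938 nuclei with 0 PTnov2 and 93.5% PTnov1. Under sGCact it held 2025 nuclei with 0 PTnov2 and 96.7% PTnov1, and under sGCstim 1629 nuclei with 27 PTnov2 (1.66%) and 89.9% PTnov1. All 27 PTnov2 nuclei of RK57_4 lay inside this circle, and the 5 nuclei from the other treated rats lay outside. With a circle that held 95% of PTnov2, the PTnov1 share of obese nuclei fell to 35.1%, because that circle takes in nuclei of other types.

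**Figure D5:**
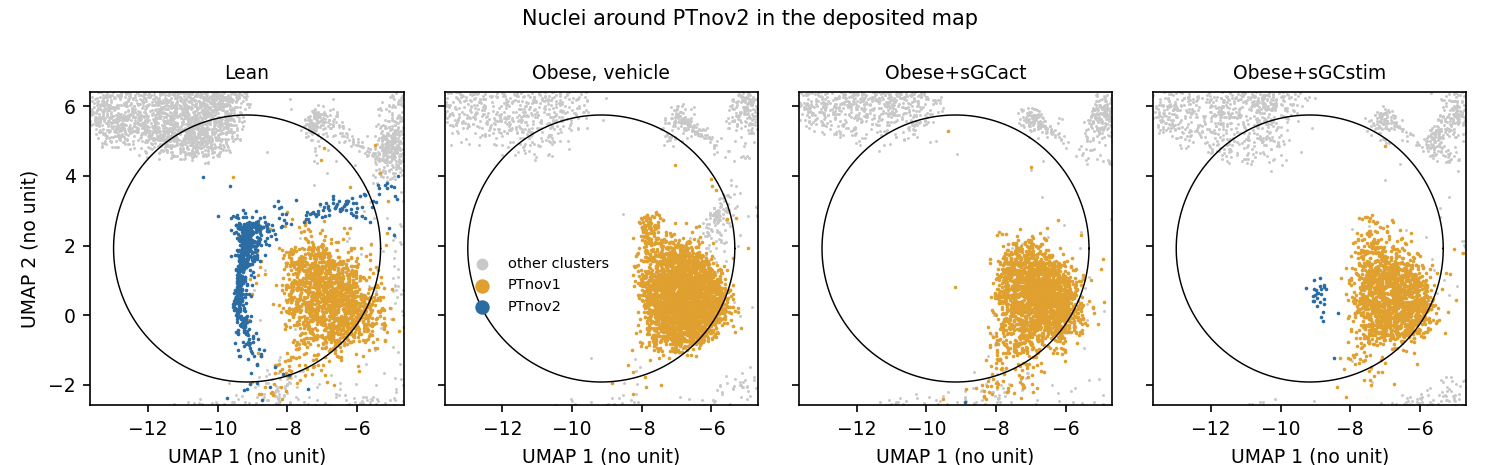
Deposited map coordinates (both axes without unit) of the nuclei around PTnov2, by group, with PTnov2 in blue, PTnov1 in orange and other clusters in grey, and the circle that holds 90% of PTnov2. Inside the circle, 658 lean nuclei and 27 nuclei of RK57_4 carry the name PTnov2. The obese and Obese+sGCact groups have 0 PTnov2 among 2938 and 2025 nuclei there, of which 93.5% and 96.7% are PTnov1.

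Within the circle, PTnov1 nuclei also differed in mitochondrial percentage between rats. Their medians were 3.54%, 6.21% and 3.32% in lean RK1_4, RK3_4 and RK5_4, and 12.8%, 12.4% and 6.68% in obese RK7_4, RK9_4 and RK16_4. The PTnov2 nuclei there had 2.81%, 3.68% and 2.10% in the lean rats, each below the PTnov1 nuclei of the same rat. In the treated rats PTnov1 had 7.32%, 5.20% and 2.90% in RK43_4, RK45_4 and RK46_4, and 3.58%, 4.63% and 6.68% in RK57_4, RK58_4 and RK61_4.

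The phase calls that the authors made from cell cycle genes were spread over all phases in PTnov2. G1 was called in 32.1%, 30.5% and 39.6% of PTnov2 nuclei of RK1_4, RK3_4 and RK5_4, S in 30.8%, 34.8% and 31.4%, and G2M in 37.1%, 34.8% and 28.9%. The mean scores were close to 0, with an S score of -0.000943 ± 0.00442 and a G2M score of -0.0033 ± 0.00426 (SD, n = 3 lean rats). PTnov1 had a G2M share of 32.0% ± 1.62 against 33.6% ± 4.23 in PTnov2, and PST had 22.2% ± 1.96. Phase calls in nuclei with so few UMIs are not read here as cycling.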

How the data were processed

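Kidney nuclei of 12 rats in 4 groups of 3 were analysed from 1 deposited table with an entry per nucleus. The authors made droplet 3′ libraries with UMIs, which the submitters' processing notes assign to Cell Ranger 6, Seurat and the rat build rn6. They corrected for ambient RNA with SoupX, removed doublets with DoubletFinder, kept nuclei with 200 to 3000 genes and at most 15% mitochondrial UMIs, merged the rats, regressed out UMIs, corrected batches with Harmony and clustered. UMIs and genes per nucleus are deposited as counts after ambient correction, without normalization. Mitochondrial UMIs are deposited as a percent of all UMIs in a nucleus. The authors' S and G2M scores have no fixed range. Phase, rat, group and cluster names and map positions were used as deposited. There were 0 unused columns of per-sample values. Rats carry names without replicate numbers and were tied to groups by the group column.

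Shares of nuclei per rat were fitted as log odds (0.5 nuclei added to the cluster, 1 to the total) with limma 3.58.1 in R 4.3.3 over all 4 groups, with Benjamini-Hochberg adjustment over 25 clusters or 8 PT clusters (threshold 0.05). The script was tested on simulated data. Exact two-sided permutation tests of the shares stand beside it. Values per nucleus, ranges and map neighbourhoods were described without a test, using pandas 2.3.3, numpy 2.4.6 and scipy 1.17.1. Depth was 11898496 to 49272672 UMIs per rat. Wilson intervals (95%) and upper limits for counts of 0 (3 counts) cover counting error only. The window common to the groups runs between the 5th and 95th percentiles of UMIs and mitochondrial percentage of lean PTnov2. Alternatives were other offsets, scales, filters and fits, edgeR 4.0.16 on numbers of nuclei, thinning to equal numbers of nuclei, and leaving out each rat. Pooled counts within ranges were also taken without RK9_4 or 1 lean rat, a choice made after seeing the data. PTnov2 and the other PT clusters are named throughout. Of clusters outside the PT, those past the threshold against lean and the 3 that supply most map neighbours are named. The cluster, the comparisons and the lists were chosen with earlier results of these data known. The study's own proportion analysis, which takes nuclei as its units, was not repeated.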

Additional observations from a re-analysis of the deposited data

How the results depend on the processing

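The PTnov2 calls of obese rats, and of the mean of the 3 obese groups, against lean passed in all 13 alternative settings and without any 1 rat, for both totals, and those of Obese+sGCact passed likewise over all nuclei. Over PT nuclei the latter was lost in edgeR (change -5.47 with the total, -5.61 with TMM, adjusted p = 0.0669 and 0.0601). The call of Obese+sGCstim against lean was lost over all nuclei with an offset of 0.1 (-4.83, limma adjusted p = 0.0715), in edgeR with the total and TMM (-2.97 and -2.68), with the compared groups alone (-4.23), and with at most 1% (-1.74) or at least 1% mitochondrial UMIs (-4.45). Over PT nuclei it was lost with the offset of 0.1 (-5.15), in edgeR (-3.20 and -3.23), with the groups alone (-4.55) and with at most 1% mitochondrial UMIs (-1.95). Its limma adjusted p ranged over the settings from 0.00262 to 0.170 and from 0.000817 to 0.145, and with 1 rat left out the change ranged from -5.40 to -3.08 and from -5.75 to -3.27. Without 1 rat, Obese+sGCstim minus obese ranged from 0.88 to 3.201 over all nuclei and from 1.01 to 3.49 over PT nuclei, and passed without RK61_4. Uncalled directions reversed with at most 1% mitochondrial UMIs (sGCact minus obese, -0.14) and, for sGCact minus sGCstim, with at least 1000 UMIs (0.029 over all nuclei, 0.21 over PT nuclei) and without RK57_4 (-2.22 to 0.10 and -2.27 to 0.20 over the rats left out).

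The number of clusters called moved more than the PTnov2 call. Over all 25 clusters, obese against lean gave 1 (edgeR with the total, groups alone, at least 1% mitochondrial) or 5 (at most 1%), and 1 to 9 without 1 rat. Obese+sGCact against lean gave 2 with the arcsine scale, 3 with at most 1% and 4 with groups alone or at least 1000 UMIs. Obese+sGCstim against lean gave 0 wherever its PTnov2 call was lost, except in edgeR with TMM, and 2 with the centred log-ratio, and 0 to 1 without 1 rat. The mean of the obese groups gave 2 to 5, and 1 to 7 without 1 rat. The contrasts among obese groups gave 2 with at least 1000 UMIs (sGCact against obese or sGCstim) or at most 1% (sGCact against obese), and 0 to 2 without 1 rat. Over the 8 PT clusters, obese against lean gave 3 with at least 1000 UMIs or at most 1%, and 1 to 2 without 1 rat. Obese+sGCact gave 0 in edgeR, 4 with groups alone and 3 in those filters, Obese+sGCstim 0 where its call was lost, and the mean 2 in those filters and 1 to 2 without 1 rat. Treated against obese gave 0 to 1 without 1 rat.

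Among described values, the lean median of UMIs was 1655 and of genes 1086 with at least 1000 UMIs, since that filter keeps the deeper nuclei. The S score was -0.0233 as a median and 0.0102 with at least 1000 UMIs, and the G2M score -0.00987 as a median, where the cause was not tested. The PTnov2 share of map neighbours was 84.2% for 10 and 79.97% for 100 neighbours, and the PTnov1 share of obese nuclei around PTnov2 was 99.6% and 35.1% in circles that held 80% and 95% of PTnov2. No paired analysis was possible because the table names rats without replicate numbers, so the fit with the number as a block was not run. PTnov2 lay at the shallow end of the PT nuclei in the lean rats and in RK57_4. The few PTnov2 nuclei of the other treated rats ranked higher by UMIs than the median PTnov2 nucleus of any lean rat. Whether the number of PTnov2 nuclei depends on the lowest depth kept in each library was not tested. Nuclei below that depth were not analysed here.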
